A study of Mus musculus with 6 samples.

Results

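The 9 genes described here are interferon factors and stimulated genes: the transcription factor genes Stat2, Irf1, Irf2, Irf7 and Irf9, the RNA sensor genes Ddx58 and Ifih1, and the interferon-stimulated genes Isg15 and Bst2. They were taken by name from the 48709 genes of the count table, and 9 of 9 were found and had enough counts to be tested, among 12722 tested genes. Polyadenylated RNA came from mouse G1E-ER4 cells, labelled immature erythroblasts and grown with erythropoietin and Kit ligand. In this line, made from embryonic stem cells, GATA-1 is joined to the hormone-binding part of the estradiol receptor, and tamoxifen switches the joined protein on. One group of 3 libraries came from cells given the CTRL peptide, a stretch of alanines joined to the Tat sequence, and the other group of 3 from cells given the CHD4-APR peptide, a short aliphatic stretch of the CHD4 C-terminus joined to the same Tat sequence. Both peptides were used at 10 μM, and after 2 h all cells also received tamoxifen for 28 h, at a concentration that is 100 nM in the cell culture protocol and 100 μM in the RNA-Seq protocol. By the stated treatments the groups differ only in the peptide, and both carry the fusion protein, tamoxifen and Tat. The cells are 1 line, and the labels do not say whether the 3 libraries of a group came from separate cultures, so the p-values measure only the spread between these libraries, which may be technical. No group without a peptide and no group given interferon was analysed here.

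Type I interferons signal through a pair of receptor chains to the kinases JAK1 and TYK2, which phosphorylate STAT proteins. STAT2 and IRF9 are parts of the complex ISGF3, which binds the interferon-stimulated response element (ISRE) in the promoters of interferon-stimulated genes, and STAT dimers bind the gamma-activated sequence (GAS). RIG-I, encoded by Ddx58, and MDA5, encoded by Ifih1, recognise double-stranded RNA in the cytoplasm and signal through MAVS to the kinase TBK1 and to IRF3 and IRF7, which switch on interferon genes. In red cell precursors the pathway is mostly known for its part in inflammation and infection.

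The libraries held 41687482 to 49784177 counts, of which the 9 genes took 0.0216% to 0.0229%. Of 15 erythroid marker genes 15 were tested, and their summed level was 73530 to 78851 normalized CPM (counts scaled to the TMM library size) in CTRL libraries and 63057 to 67111 in CHD4-APR libraries, with no overlap. Hemoglobin genes made up most of that sum and fell, and of the 15 genes 5 fell in all and 3 rose, namely Tfrc, Gata1 and Epb42, with log2 fold changes of 0.26, 0.21 and 0.34. Reads from the GATA-1 fusion may be counted as Gata1. Macrophage markers summed to 8.36 to 9.80 CPM in CTRL and 6.79 to 8.16 CPM in CHD4-APR libraries, with no overlap. Adgre1, Mpeg1, Cd14, Mrc1 and Fcgr1 were at 0 throughout, and nearly all of the sum lay in Cd68 and Csf1r. Cd68 passed as lower (log2 fold change -0.38, adjusted p = 0.0116 by edgeR) and Csf1r did not pass. Dendritic cell markers summed to 6.44 to 7.18 CPM in CTRL and 6.55 to 8.59 CPM in CHD4-APR libraries, with Flt3 and Itgax at 0 and nearly all of the sum in Zbtb46. Lymphoid markers summed to at most 0.614 CPM, with 5 of 9 at 0 including Cd3e, megakaryocyte markers to 41.2 to 50.2 CPM, with Ppbp and Vwf at 0 and no overlap between the groups, and 6 of 6 fibroblast markers were at 0. The part of these levels in the results below was not tested.

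The ISRE was searched as GAAA, any 2 bases and GAAA, and the GAS as TTCNNNGAA, on both strands, from 250 bases before to 50 bases after each RefSeq transcription start (GRCm38.p6). Of the 9 genes, 6 held an ISRE match in a window and 3 a GAS match, while 3.43% and 8.29% of the 32817 windows of all genes did so. The matches below are shown because they separate the 9 genes by promoter letters, with flanking bases in lower case and the ISRE or GAS match in capitals, 5′ to 3′ on the strand of the gene. The offsets from the start count its first base as 0. In Bst2 both kinds of match run into each other, in Irf1 the capitals mark a GAS, and elsewhere they mark an ISRE.
Ifih1, chr2:62646206-62646233, minus strand: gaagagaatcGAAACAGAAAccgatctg
Ddx58, chr4:40239804-40239833, minus strand: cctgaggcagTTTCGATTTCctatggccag
Isg15, chr4:156200865-156200906, minus strand: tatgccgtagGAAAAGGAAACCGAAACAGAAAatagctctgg
Bst2, chr8:71537577-71537618, minus strand: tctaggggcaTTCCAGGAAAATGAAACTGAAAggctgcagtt
Stat2, chr10:128270266-128270295, plus strand: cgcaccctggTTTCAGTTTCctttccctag
Irf1, chr11:53769914-53769942, plus strand: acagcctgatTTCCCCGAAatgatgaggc
The Isg15 run holds 3 overlapping ISRE matches, the first of them at -78 from the transcription start, and Bst2 holds 2, the first of them at -130. The Ifih1 and Ddx58 matches lie after the start, at 32 to 41 and at 2 to 11 bases. Irf2 has an ISRE match at -241 and a GAS match at -224, and no match to either was found in the windows of Irf7 and Irf9, which says only that these letters are not there.
The promoter of Isg15 is shown whole up to the base before its start, because it holds the most ISRE matches of the 9 genes, with the matches in capitals.
Isg15, chr4:156200819-156201068, minus strand: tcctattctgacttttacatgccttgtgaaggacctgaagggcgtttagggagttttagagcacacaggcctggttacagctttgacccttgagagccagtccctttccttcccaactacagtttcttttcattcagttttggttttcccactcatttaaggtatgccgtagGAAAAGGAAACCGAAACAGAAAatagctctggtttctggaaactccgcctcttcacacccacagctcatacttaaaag

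Genes with ISRE or GAS letters in a promoter passed the test in shares close to that of all genes with a promoter window, though the differences were not tested. Of 282 tested genes with an ISRE match, 65 were higher and 53 lower in CHD4-APR libraries with an adjusted p under 0.05 (41.8% in all), and their median log2 fold change was 0.012. Of 685 with a GAS match, 158 were higher and 131 lower (42.2%), with a median of 0.0011. Among the 8486 tested genes with any promoter window 41.2% passed, with a median of -0.0029.

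Of the 2 RNA sensor genes, Ifih1 rose in CHD4-APR-treated cells and passed the test under every setting tried. Ddx58 was higher in 16 of 16 alternatives and passed in 8 of them. In the reported fit the 5 transcription factor genes and the 2 stimulated genes did not pass in either direction. Among these 7, Bst2 passed in 1 of 16 alternatives and the others in none. By edgeR's quasi-likelihood test, 2 of the 9 genes had an adjusted p under 0.05, both higher and none lower, where 38.3% of all tested genes passed, 20.4% as higher and 17.8% as lower. The share among the 9 genes was 22.2%. In these bulk libraries, fewer cells of a type and less RNA per cell cannot be told apart. The median log2 fold change of the 9 genes was -0.026, against -0.012 over all tested genes. In 4 of the 9 genes the groups did not overlap in normalized CPM, against 49.9% of all tested genes. No member passed both the test and a 1.5-fold change, as 4.23% of all tested genes did. Leaving out replicate 2 or 3 of CTRL, or replicate 1 or 2 of CHD4-APR, lowered that number from 2 to 1, because Ddx58 was then lost. Ddx58 also missed the threshold with DESeq2 (adjusted p = 0.0651), limma-voom (adjusted p = 0.0502) and the length and GC offsets (adjusted p = 0.204 by edgeR, and 0.213 with a replicate block).

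**Figure D1:**
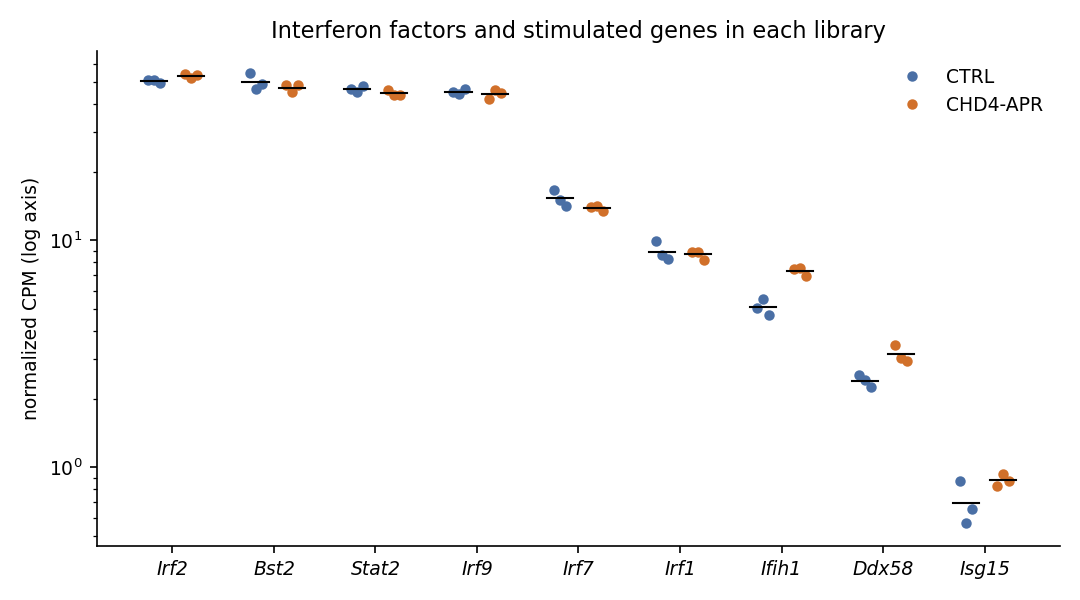
Normalized CPM (log axis) of the 9 genes in each of the 3 CTRL and 3 CHD4-APR libraries, points for libraries and lines for group means, ordered by CTRL level. Ifih1 and Ddx58 sit higher in every CHD4-APR library, from 6.97 to 7.53 and from 2.94 to 3.47 CPM, and the points of Stat2, Irf9, Irf1, Bst2 and Isg15 overlap.

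Compared per length of exon, as CPM per kilobase of exon (RPKM), the 9 genes spanned a wide range of levels in the same order in both groups. Bst2, which encodes tetherin, an antiviral membrane protein that holds budding virions at the cell surface, was the highest by far, at 55.2 ± 4.50 RPKM (SD, n = 3) in CTRL and 52.1 ± 2.16 RPKM (SD, n = 3) in CHD4-APR libraries. The ISGF3 genes Irf9 and Stat2 followed in CTRL libraries at 8.36 ± 0.245 and 7.83 ± 0.227 RPKM (SD, n = 3), and Irf2 at 6.80 ± 0.106 RPKM (SD, n = 3). Irf7 had 4.05 RPKM, Irf1 2.24 RPKM, Isg15 0.923 RPKM, Ifih1 0.620 RPKM and Ddx58 0.342 RPKM as CTRL means. Neighbours in this order did not overlap in range in either group, but the closest were near each other: Irf9 stood 1.07 times above Stat2 in CTRL libraries, and Stat2 stood 1.04 times above Irf2 in CHD4-APR libraries. By this measure both sensor genes were the lowest of the 9 in both groups. The length here is the union of all annotated exons of a gene, which can exceed that of its transcripts. Whether the order holds with transcript lengths was not tested.

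Ifih1 encodes MDA5, which recognises long double-stranded RNA. It lies on chromosome 2 from 62595798 to 62646255 (GRCm38) on the minus strand, is protein-coding, and no other annotated gene overlaps it. Its normalized CPM were 5.01, 5.49 and 4.69 in CTRL replicates 1 to 3 and 7.49, 7.53 and 6.97 in CHD4-APR replicates 1 to 3, from 194 to 335 counts a library. Every CHD4-APR library stood above every CTRL library. The log2 fold change was 0.53 (standard error 0.10, 95% interval 0.32 to 0.74, adjusted p = 6.33e-04 by edgeR's quasi-likelihood test), a 1.44-fold rise. It passed in 16 of 16 alternative settings, with log2 fold changes from 0.28 to 0.60. The lowest value came with offsets for exon length and GC content, where it was 0.28, with an adjusted p of 0.0419 by edgeR. Ifih1 has 8165 exonic bases and 42.8% GC, against medians of 3688 bases and 49.6% over all tested genes.

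Ddx58 encodes RIG-I, which recognises short double-stranded RNA with a 5′ triphosphate. It lies on chromosome 4 from 40203773 to 40239828 on the minus strand, is protein-coding, and also overlaps no other annotated gene. It had 2.55, 2.43 and 2.25 CPM in CTRL replicates 1 to 3 and 3.47, 3.04 and 2.94 CPM in CHD4-APR replicates 1 to 3, from 93 to 155 counts a library. The groups again did not overlap, with CHD4-APR libraries higher. On the log2 scale the difference was 0.39 (standard error 0.14, 95% interval 0.090 to 0.68, adjusted p = 0.0387 by edgeR), a 1.31-fold rise. This call was near the threshold and was lost in 8 of 16 alternative settings, although the direction held in 16 of 16. With the length and GC offsets the log2 fold change was 0.25 (adjusted p = 0.204 by edgeR). Ddx58 has 7050 exonic bases and 46.6% GC. The log2 fold change was 0.39 and 0.34 with CTRL replicate 2 or 3 removed, and 0.32 and 0.41 with replicate 1 or 2 of the CHD4-APR group removed.

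**Figure D2:**
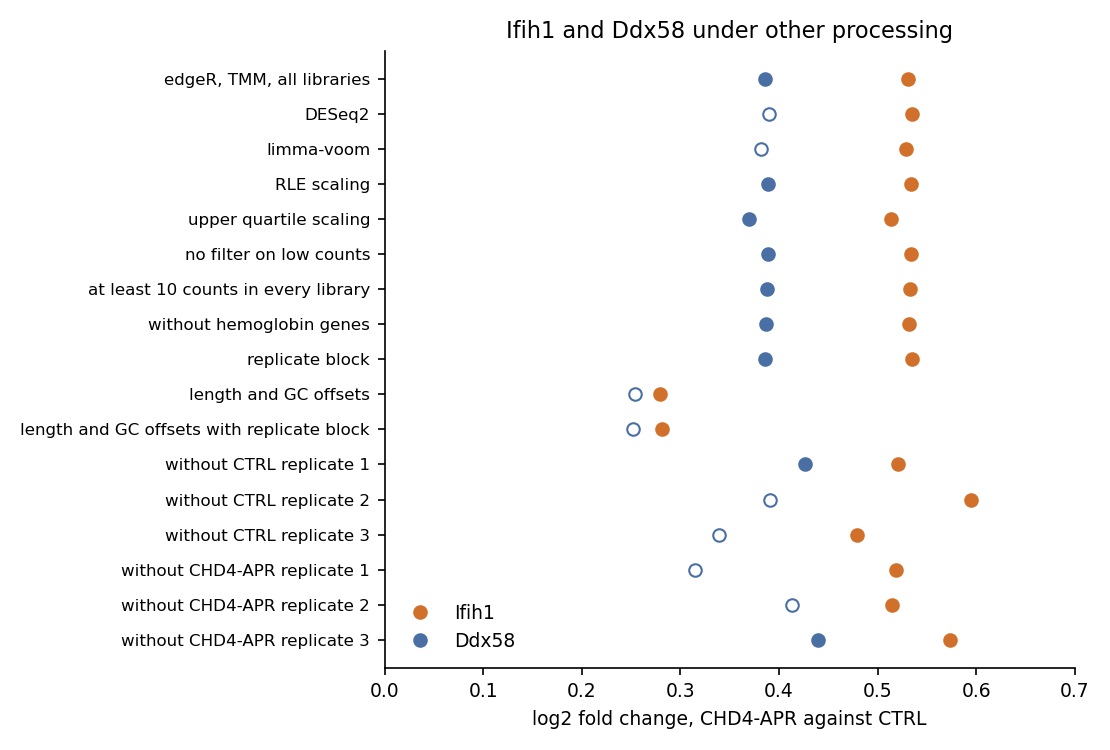
Log2 fold change of Ifih1 and Ddx58 (x axis) under each processing setting (rows), with filled points where the adjusted p was under 0.05 and open points where it was not. Ifih1 is filled in every row, from 0.28 to 0.60, and Ddx58 is open in 8 rows.

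Dhx58, the remaining gene of the RIG-I-like family and singled out after its values were seen, encodes LGP2, which binds RNA but lacks the signalling domain of the other two. Its CPM were 0.803, 0.911 and 1.14 in CTRL and 1.03, 0.866 and 0.953 in CHD4-APR libraries. The groups overlapped, with a log2 fold change of 0.0030 (95% interval -0.50 to 0.50, adjusted p = 0.994 by edgeR). Whether it differed from Ifih1 and Ddx58 was not tested.

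The counts of the sensor genes are also given relative to those of Stat2 in the same library, which needs no scaling between libraries. The ratio was chosen after the values were seen and uses the same counts, so it describes them and is no further support for a rise. Ifih1 had 10.8, 12.2 and 9.83 counts per 100 Stat2 counts in CTRL replicates 1 to 3 and 16.3, 17.3 and 16.0 in CHD4-APR replicates 1 to 3. Ddx58 had 5.48, 5.40 and 4.71 in CTRL and 7.54, 6.97 and 6.77 in CHD4-APR libraries. For both genes the groups did not overlap. Irf2, which did not pass the test, also did not overlap on this scale, at 108.5 ± 4.58 and 119.8 ± 2.90 counts per 100 Stat2 counts (SD, n = 3 each). Dhx58 had 2.04 ± 0.329 and 2.14 ± 0.134 counts per 100 Stat2 counts (SD, n = 3 each), and its groups overlapped.

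**Figure D3:**
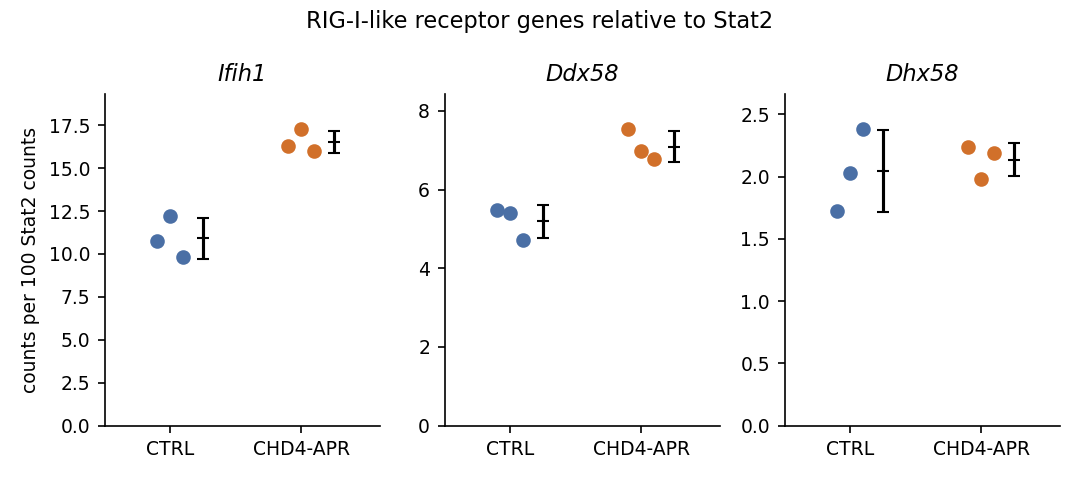
Counts of Ifih1, Ddx58 and Dhx58 per 100 Stat2 counts in the same library (y axis, from 0) for 3 CTRL and 3 CHD4-APR libraries, with the mean and SD beside the points. The means are 10.9 and 16.5 for Ifih1 and 5.20 and 7.09 for Ddx58, and the Dhx58 groups overlap.

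Stat2 encodes the STAT that ISGF3 depends on for its activation domain. It lies on chromosome 10 from 128270559 to 128292849 on the plus strand. Its CPM were 46.5, 45.0 and 47.7 in CTRL and 46.0, 43.6 and 43.5 in CHD4-APR libraries, so the groups overlapped. Its log2 fold change was -0.064 (95% interval -0.17 to 0.046, adjusted p = 0.363 by edgeR), and it stayed below 0 in 16 of 16 alternatives.

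Irf9, the DNA-binding partner of STAT2 in ISGF3, lies on chromosome 14 from 55603571 to 55610030. It had 44.8, 43.8 and 46.4 CPM in CTRL and 42.1, 45.9 and 44.6 CPM in CHD4-APR libraries. The groups overlapped. On the log2 scale the difference was -0.026 (95% interval -0.14 to 0.088, adjusted p = 0.739 by edgeR). Irf9 shares 123 exonic bases with Rnf31 on the same strand, and reads from there could have been lost or counted to either gene. Rnf31 had 52.4 ± 1.05 CPM in CTRL and 50.2 ± 1.16 CPM in CHD4-APR libraries (SD, n = 3) and did not pass (adjusted p = 0.363 by edgeR).

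Irf1 and Irf2 bind the same DNA element with opposite effects, Irf1 as an activator and Irf2 mostly as a repressor of interferon-stimulated genes. Irf1, on chromosome 11 from 53770014 to 53778374, had 9.89, 8.59 and 8.24 CPM in CTRL and 8.86, 8.91 and 8.22 CPM in CHD4-APR libraries. Its groups overlapped, at a log2 fold change of -0.040 (95% interval -0.24 to 0.16, adjusted p = 0.771 by edgeR). Gm17334 shares 135 exonic bases with it on the opposite strand and had 2 to 4 counts a library. Irf2, on chromosome 8 from 46739732 to 46847458, had 50.8, 50.7 and 49.4 CPM in CTRL and 54.0, 51.9 and 53.5 CPM in CHD4-APR libraries. Each CHD4-APR library of Irf2 lay above each CTRL library, but the difference did not pass the test (log2 fold change 0.079, 95% interval -0.024 to 0.18, adjusted p = 0.221 by edgeR), and it turned to -0.066 with the length and GC offsets. Irf2 has 7396 exonic bases and 46.4% GC. The annotated genes Gm45479, Gm31172 and Gm45481 lie within it on the opposite strand, share 0 exonic bases with it and had 0 to 2 counts a library.

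Irf7 encodes the factor that amplifies type I interferon expression. It lies on chromosome 7 from 141262706 to 141266481 on the minus strand and shares 45 exonic bases with Phrf1 on the opposite strand, so that without stranded counting some reads cannot be assigned to one of them. Its CPM were 16.6, 15.0 and 14.2 in CTRL and 14.0, 14.2 and 13.5 in CHD4-APR libraries. The CHD4-APR libraries were all lower, by a narrow margin between the nearest pair. Phrf1 had 135 ± 3.73 CPM in CTRL and 130 ± 2.15 CPM in CHD4-APR libraries (SD, n = 3) and did not pass either. Irf7 had a log2 fold change of -0.14 (95% interval -0.30 to 0.024, adjusted p = 0.173 by edgeR), and it was -0.077 with CTRL replicate 1 removed and -0.015 with the length and GC offsets.

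Isg15 encodes a ubiquitin-like protein that is attached to other proteins during the interferon response and is among the most strongly induced genes of that response. It lies on chromosome 4 from 156199424 to 156200818 on the minus strand. It had 37, 28 and 27 counts in CTRL and 37, 40 and 41 counts in CHD4-APR libraries, which is 0.874, 0.567 and 0.652 CPM against 0.828, 0.936 and 0.868 CPM. CTRL replicate 1 lay inside the CHD4-APR range. The log2 fold change was 0.34 with a wide interval of -0.23 to 0.90 (adjusted p = 0.347 by edgeR). It was 0.20 without CTRL replicate 2, 0.53 without CTRL replicate 1 and 0.53 with the length and GC offsets, and passed in none of the 16 alternatives.

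Bst2 lies on chromosome 8 from 71534255 to 71537456 on the minus strand. It had 54.4, 46.5 and 48.8 CPM in CTRL and 48.2, 44.8 and 48.1 CPM in CHD4-APR libraries. The groups overlapped, and the log2 fold change was -0.084 (95% interval -0.21 to 0.046, adjusted p = 0.307 by edgeR). It was -0.018 with CTRL replicate 1 removed, -0.047 with CHD4-APR replicate 2 removed and -0.13 with CTRL replicate 2 removed. Its direction depended on the processing: the length and GC offsets gave 0.13 (adjusted p = 0.0604 by edgeR), and those offsets with a replicate block gave 0.13 and a pass (adjusted p = 0.0258 by edgeR). Bst2 is short and rich in GC, with 903 exonic bases and 55.3% GC.

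**Figure D4:**
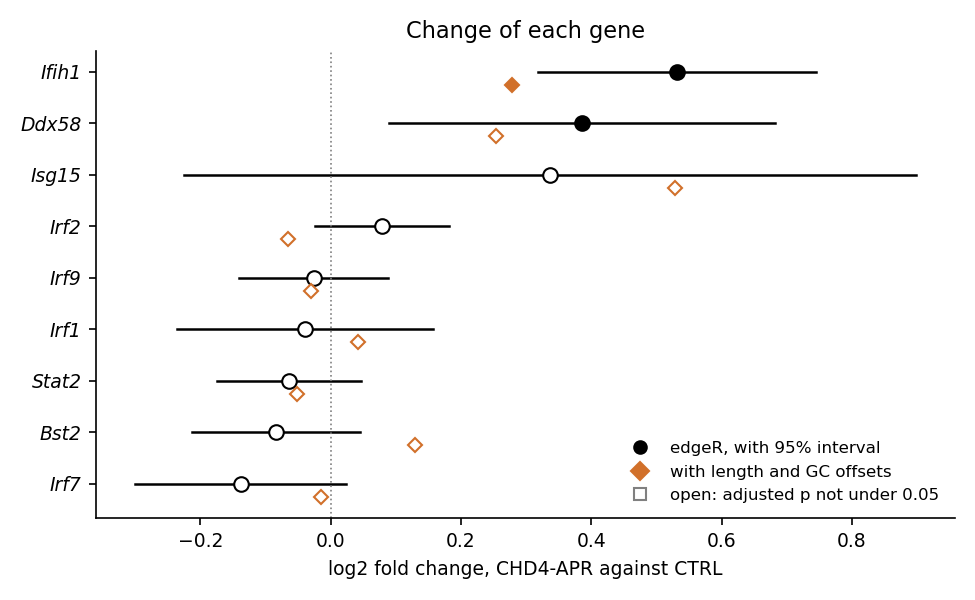
Log2 fold change of CHD4-APR against CTRL for each gene, with circles and lines for edgeR's estimate and 95% interval and diamonds for the estimate with length and GC offsets, filled where the adjusted p was under 0.05. The intervals of Ifih1 and Ddx58 lie above 0, and the diamonds of Irf1, Irf2 and Bst2 lie on the other side of 0 from their circles.

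The genes whose pattern over the 6 libraries was most like that of Ifih1, the member with the largest change, were Zfp281, Zfp970 and Mfsd14a. Their log2 CPM, centred on each gene's own mean, differed from those of Ifih1 by a root mean square of 0.031, 0.042 and 0.046 over 6 libraries. Zfp281 had 20.2 ± 1.14 CPM in CTRL and 29.9 ± 1.55 CPM in CHD4-APR libraries (SD, n = 3), a log2 fold change of 0.56. Zfp970 and Mfsd14a had log2 fold changes of 0.50 and 0.57. All 3 have a GC content below the median of the tested genes, from 40.8% to 43.1%.

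The other genes of the pathway were listed by role, and of 150 such genes 88 could be tested. Of these, 18 were higher and 13 lower in CHD4-APR libraries and 57 did not pass, and the median log2 fold change of the 88 was 0.0091, against -0.012 over all tested genes, of which 20.4% were higher and 17.8% lower. The counts for each role below stand beside the same background of 38.3% that passed. With the length and GC offsets 15 were higher and 6 lower, in a fit where 1756 of all tested genes were higher and 1586 lower. Of the 31 genes, 14 still passed with those offsets and 12 passed in every alternative setting.

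Interferon transcripts themselves were close to absent from the counts. Of 21 interferon genes, 20 had 0 counts in all 6 libraries, including Ifnb1 and Ifng, which allows at most 0.0608 to 0.0725 CPM a library (3 counts, for counting error only). That limit may not hold for the near-identical Ifna genes, since how reads with several matches were counted is not given in the sources used here. Ifnab had 2 counts in CHD4-APR replicate 2 and 0 elsewhere.

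Among the receptors and kinases, Jak1 and Jak2 rose and the interferon receptors did not pass. Of 8 tested genes 2 were higher and 0 lower, with a median log2 fold change of 0.030. Jak1, the kinase shared by the interferon receptors, had 113, 126 and 129 CPM in CTRL and 165, 159 and 153 CPM in CHD4-APR libraries. Each CHD4-APR library was above each CTRL library, at a log2 fold change of 0.37 (standard error 0.052, adjusted p = 4.74e-05 by edgeR) that was 0.26 and still passed with the length and GC offsets. Jak2, which serves the erythropoietin receptor and the interferon-gamma receptor, had a log2 fold change of 0.24 (adjusted p = 0.00129 by edgeR), and 0.12 with the offsets (adjusted p = 0.0442 by edgeR). Ifnar1 and Ifnar2, the 2 chains of the type I interferon receptor, had log2 fold changes of 0.034 and 0.041 (adjusted p = 0.621 and 0.555 by edgeR), and Tyk2, the partner kinase of Jak1 at that receptor, had -0.038 (adjusted p = 0.570 by edgeR). Among 7 other STAT and IRF genes tested, Stat5b was the 1 that rose and Irf3 the 1 that fell. Stat5b, which acts downstream of erythropoietin, had a log2 fold change of 0.22 (adjusted p = 7.72e-04 by edgeR). Irf3, the factor that RNA sensing activates first, had 79.3, 67.9 and 69.9 CPM in CTRL and 59.6, 61.9 and 61.0 CPM in CHD4-APR libraries. The log2 fold change of Irf3 was -0.25 (adjusted p = 0.00250 by edgeR), and the offsets moved it to -0.10, short of the threshold (adjusted p = 0.102 by edgeR). Irf8, a factor of myeloid and lymphoid cells, had 0 counts throughout.

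In the signalling that follows RNA and DNA sensing, 3 of 14 tested genes were higher and 1 was lower, with a median log2 fold change of 0.067. Traf6, a ubiquitin ligase of Toll-like receptor signalling, rose from 42.5, 45.1 and 44.7 CPM to 57.2, 56.4 and 56.7 CPM, with no overlap (log2 fold change 0.36, adjusted p = 3.82e-05 by edgeR). Tbk1, the kinase that phosphorylates IRF3, had a log2 fold change of 0.20 (adjusted p = 0.00531 by edgeR), and Trim25, a ubiquitin ligase that helps to activate RIG-I, 0.16 (adjusted p = 0.0480 by edgeR). Mavs, the adaptor of both sensors on mitochondria and named as the only gene of the list that fell, had a log2 fold change of -0.14 (adjusted p = 0.0379 by edgeR). Traf6 and Tbk1 also passed with the length and GC offsets, at 0.19 and 0.14, while Trim25 and Mavs did not, at 0.14 and -0.020. Trim25 did pass with the offsets and the replicate block together. Trim25 passed in 9 of 16 alternatives and was lost when CTRL replicate 1 or 3 was removed (0.11 and 0.19), or replicate 1 or 2 of the CHD4-APR group (0.17 and 0.099). Mavs passed in 10 of 16 and was lost when CTRL replicate 2 or 3 was removed (-0.10 and -0.14), or replicate 1 or 3 of the CHD4-APR group (-0.10 and -0.13).

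Of 55 interferon-stimulated genes listed beside Isg15 and Bst2, 30 could be tested, and 3 were higher, 3 lower and 24 did not pass. Their median log2 fold change was 0.00017. Dtx3l, a ubiquitin ligase that works with Parp9 in DNA repair and antiviral signalling, had 7.55, 8.32 and 8.60 CPM in CTRL and 13.3, 14.9 and 11.3 CPM in CHD4-APR libraries. It was the only gene of this list to pass both the test and a 1.5-fold change. Its log2 fold change was 0.69 (standard error 0.10, adjusted p = 7.55e-05 by edgeR), and it was 0.58 with the offsets and still passed. Parp9, singled out after its values were seen because it overlaps Dtx3l on the opposite strand of chromosome 16, where reads cannot be assigned without strand, had a log2 fold change of 0.090 that did not pass (95% interval -0.031 to 0.21, adjusted p = 0.238 by edgeR). Ifitm2, a membrane protein that restricts virus entry, and Ifi35 had log2 fold changes of -0.26 and -0.26 (adjusted p = 0.00222 and 7.69e-04 by edgeR). With the offsets these were -0.046 and -0.082 and did not pass, and reads of Ifitm2 could also be shared with its near-identical relatives. Of the 25 genes too low to be tested, 12 had 0 counts in all 6 libraries, as had 28072 of the 48709 genes of the whole table. Among these 12, chosen after their values were seen, are Ifit1, Ifit3, Rsad2, Ifi44 and Rtp4, textbook markers of an interferon response. Other stimulated genes of the list were expressed. Igtp and Oas3, also chosen after their values were seen, had CTRL means of 125 and 37.8 CPM.

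Of the genes for attaching ISG15 to proteins and removing it, Ube2l6 and Uba7 were slightly lower in CHD4-APR libraries. The ligase gene Herc6 had 1 count in 1 library and was not tested. Of 3 tested genes 2 fell and 0 rose, with a median log2 fold change of -0.14. Ube2l6, the conjugating enzyme, had 338, 326 and 318 CPM in CTRL and 285, 272 and 283 CPM in CHD4-APR libraries (log2 fold change -0.23, adjusted p = 5.52e-04 by edgeR). Uba7, the activating enzyme, had 884, 809 and 894 CPM against 792, 769 and 782 CPM (log2 fold change -0.14, adjusted p = 0.0209 by edgeR). Neither gene overlapped between the groups, and both passed with the length and GC offsets, at -0.11 and -0.099, while over 16 alternatives Ube2l6 passed in 16 and Uba7 in 13. Removal of CTRL replicate 3 (-0.12), or of replicate 2 or 3 of the CHD4-APR group (-0.13 and -0.14), ended the call of Uba7. Usp18, the protease that removes ISG15, named here after its values were seen, had 0.597 ± 0.111 and 0.608 ± 0.0486 CPM (SD, n = 3) and did not pass.

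Antigen presentation genes moved both ways, with 2 of 10 tested genes higher, 4 lower and a median log2 fold change of -0.11. Erap1, which trims peptides in the endoplasmic reticulum, rose by a log2 fold change of 0.39 (adjusted p = 0.00389 by edgeR). Psme2, a subunit of the proteasome activator, and the class I gene H2-D1 had log2 fold changes of -0.24 and -0.22 (adjusted p = 6.93e-04 and 9.73e-04 by edgeR). None of these 3 passed with the length and GC offsets, where they were 0.13, -0.079 and -0.057. The other genes that passed, named after their values were seen, were Tapbp (higher) and Psme1 and Tap2 (lower). With the offsets none of the 4 lower genes passed and Psme1 turned to 0.038, whereas Tapbp passed at 0.28. In the reported fit Tapbp had a log2 fold change of 0.13 (adjusted p = 0.0239 by edgeR). It was lost in 5 of 6 settings that leave out a library, all but the one without CTRL replicate 1. Over those 6 settings its log2 fold change ran from 0.11 to 0.16. Psme1 passed in 9 of 16 alternatives and Tap2 in 10. Psme1 was lost with any single library removed other than CTRL replicate 2, and had -0.085 without CTRL replicate 1. Tap2 was lost when CTRL replicate 1 or 3 was removed (-0.11 and -0.16), or replicate 2 or 3 of the CHD4-APR group (-0.11 and -0.14). The H2-D1 reads could be shared with other class I genes. Among the negative regulators, 7 of 16 tested genes were higher and 2 lower, with a median of 0.074. Tnfaip3, the deubiquitinase A20 that restrains signalling to NF-kappaB and from RNA sensors, had 9.35, 9.21 and 8.14 CPM in CTRL and 14.6, 14.2 and 14.6 CPM in CHD4-APR libraries. Its log2 fold change of 0.70 (standard error 0.080, adjusted p = 8.12e-06 by edgeR) was 0.57 with the offsets and passed in 16 of 16 alternatives. Setdb2, a histone lysine methyltransferase of the SET domain family, and Pias1, a SUMO ligase that inhibits STAT signalling, rose by log2 fold changes of 0.35 and 0.33 (adjusted p = 2.92e-04 and 2.02e-04 by edgeR), and with the offsets Setdb2 passed at 0.22 and Pias1 did not at 0.10.

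**Figure D5:**
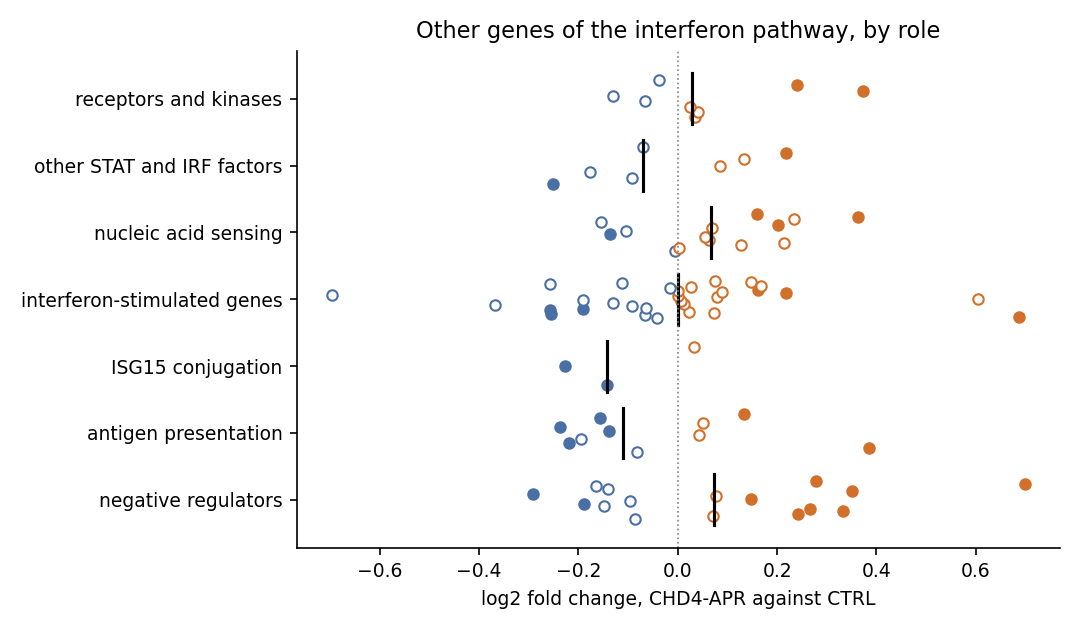
Log2 fold change of CHD4-APR against CTRL (x axis) for the 88 tested genes of the pathway, grouped by role, with filled points where the adjusted p was under 0.05 and open points elsewhere, orange above 0, blue below 0 and a black line at each group's median. The medians run from -0.14 for ISG15 conjugation to 0.074 for the negative regulators, and every role except ISG15 conjugation and receptors and kinases holds filled points on both sides of 0.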

How the data were processed

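The authors trimmed adaptors with Cutadapt, aligned reads with STAR 2.7.10a to GRCm38 and deposited raw counts per Ensembl gene from featureCounts. Strandedness and multi-mapping are not given in the sources used here, and the kit named in the labels does not mark strand. The table also has 2 columns outside the 6 samples, which were left out. The genes and lists were chosen with earlier results of these data known.

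Symbols, positions and union exon lengths came from GENCODE M21 (48349 of 48709 identifiers). Counts were analysed in R 4.3.3 with edgeR 4.0.16 (filterByExpr, TMM, quasi-likelihood F-test without a block, two-sided, Benjamini-Hochberg over 12722 genes, threshold 0.05). CPM used the TMM library sizes. Standard errors and 95% intervals came from the F statistic and its degrees of freedom. Alternatives were DESeq2 1.42.0, limma 3.58.1 (voom), other scalings and filters, no hemoglobin genes, a replicate block, each library left out, and offsets from a smooth (mgcv 1.9.3) of each library's log2 CPM, with a prior count of 2, on length and GC, known for 12677 genes. On simulated counts of 12603 genes edgeR recovered 82 of 100 genes changed 1.4-fold, with 14 false calls over all genes. A simulated GC trend over 12606 genes, without any changed gene, gave 2031 calls, and 0 with offsets. The offsets are made to remove such a trend, so this cannot show whether they also remove real changes.

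Named genes were the 9 members, the 3 largest changes that passed in each list, Ifnar1, Ifnar2, Jak1, Tyk2, Irf3 and Irf8, the 3 genes nearest to the member with the largest change, and genes overlapping a member. A gene of the fixed names in that rule is not reported here. Replicate pairs all differed by more than sampling noise, by chi-square over degrees of freedom of 4.62 to 15.5.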

Additional observations from a re-analysis of the deposited data

How the results depend on the processing

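Over 16 alternatives each, Stat2, Irf7, Isg15, Ddx58 and Ifih1 kept their direction, and Ifih1 passed in all. The number of the 9 genes that passed was 2, and 1 with DESeq2, limma-voom, the length and GC offsets and an adjusted p under 0.01, and 1 to 2 with each library left out. Ddx58 (0.39) no longer passed with DESeq2 (0.39), limma-voom (0.38), the length and GC offsets (0.25) and the same with a replicate block (0.25), and ran from 0.32 to 0.44 when single libraries were left out. With the length and GC offsets Irf1 turned to 0.042, Irf2 to -0.066, Bst2 to 0.13 and Psme1, a proteasome activator gene, to 0.038, and with the replicate block as well to 0.044, -0.067, 0.13 and 0.038. With single libraries left out Irf1 lay between -0.092 and 0.040, turning without CTRL replicate 1 (0.040) and CHD4-APR replicate 3 (0.0036), and Irf9 between -0.051 and 0.012, turning without CHD4-APR replicate 1. The causes were not tested.

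The deviations of same-numbered libraries were at most weakly correlated (-0.035 to 0.070). With 3 libraries a group this cannot settle whether the numbers pair them. With the replicate block alone 2 of the 9 genes passed, 32 of the pathway genes against 31, and 5214 genes against 4871. Genes that passed over the whole table ran from 3250 to 5214, with 2601 higher and 2270 lower in the reported fit, 2419 and 2601 with upper quartile scaling. With the offsets and the block together Ifih1 and Bst2 passed. Over the 31 pathway genes and all alternatives, 64 values no longer passed, 2 reversed and 430 kept direction and call. Isg15, with 27 to 41 counts a library, ran from 0.20 to 0.54 over the alternatives and passed in none.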
